A study of Drosophila melanogaster with 12 samples.

Results

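The genes armi, daed, Gasz, zuc and mino encode 5 proteins that process PIWI-interacting RNA (piRNA) precursors at the outer mitochondrial membrane. They were chosen by name, and all 5 were found among the 17469 genes of the gene table. Piwi is an Argonaute protein that carries short RNAs into the nucleus to silence transposons. In somatic cells of the fly ovary its precursors are brought to mitochondria by Armitage (Armi), an RNA helicase, and cut by Zucchini (Zuc), an endonuclease of the phospholipase D family. Gasz and Daedalus (Daed) are membrane-bound partners that hold Armi at this surface, and both carry a SAM domain, a module for contacts between proteins. Minotaur (Mino) is a glycerol-3-phosphate acyltransferase that is also needed for piRNA production. The messenger RNAs of protein-coding genes are themselves sources of piRNAs in these cells. The values below therefore measure small RNAs made from the transcripts of these genes and bound to Piwi, not the amounts of the messenger RNAs or proteins.

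All libraries came from the ovarian somatic cell line (OSC) of Drosophila melanogaster. An endogenous protein was depleted with siRNA, and 48 h later a rescue plasmid was introduced with more siRNA. Cells were harvested after another 48 h, and RNAs of 20 to 40 nucleotides were recovered from Piwi immunoprecipitates. The 4 groups of 3 libraries were Daed knockdown with Flag-Daed deltaSAM, Daed knockdown with Flag-Daed WT, Armi knockdown with the Flag-tagged Armi variant labelled KEE, and Armi knockdown with Flag-tagged Armi WT. The deltaSAM variant lacks the SAM domain of Daed, and the labels do not spell out KEE. Every library thus carried a knockdown and a rescue plasmid, and cells without either were not analysed here. Nothing in the labels says that replicates were separate cultures, so p-values measure the spread between these samples only.

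Library sizes were 1701393 to 1836515 reads with deltaSAM, 1396369 to 1961721 with Daed WT, 3697324 to 3995009 with KEE and 2335292 to 3828687 with Armi WT. Reads assigned to genes made up 58.0 ± 0.598% of the library with deltaSAM, against 50.2 ± 0.812% with Daed WT, and 79.5 ± 0.251% with KEE, against 63.4 ± 1.32% with Armi WT (SD, n = 3 each). Values are reads scaled to library size (RPM). They are relative, so fewer piRNAs of a gene and more of all others cannot be told apart. The gene-assigned share moved with the comparisons below, which were therefore repeated with RPM rescaled to gene reads only (the gene-table total), to each library's median gene, or with TMM factors. Among called genes these scalings moved the share that was higher, which was 47.8% with deltaSAM (28.9%, 68.8% and 60.7% under the 3 scalings in that order), 73.8% with KEE (55.0%, 49.7% and 48.5%), 72.8% for the KEE effect minus the deltaSAM effect (67.1%, 38.8% and 43.6%) and 74.9% between WT groups (36.3%, 80.5% and 66.6%). Markers of ovarian somatic cells (tj, zfh1, Fas3, eya and hh) all had reads in each group. They summed to 15364 to 19090 RPM with deltaSAM, against 7992 to 8619 RPM with Daed WT, and to 12319 to 12928 RPM with KEE, against 12909 to 14400 RPM with Armi WT, most of it from tj. With KEE 4 of the 5 were called higher and 1, tj, lower, where 33.0% of all tested genes were higher and 11.7% lower. The median log2 fold change of the list was 1.48 with KEE, and zfh1 rose to 3359 RPM, against 508 RPM with Armi WT. With deltaSAM 4 were higher and 0 lower (median 0.90), against 17.3% and 18.9% of all tested genes. The 7 matched germline markers summed to 52.9 to 76.8 RPM with deltaSAM, against 39.7 to 43.0 RPM with Daed WT, and to 75.3 to 89.5 RPM with KEE, against 51.8 to 58.8 RPM with Armi WT. Most of this sum was ovo, at 36.7 RPM with deltaSAM, against 21.8 RPM with Daed WT, and at 65.9 RPM with KEE, against 32.8 RPM with Armi WT. With KEE AGO3 (2.63 RPM, against 5.88 RPM) and osk (3.30 RPM, against 6.54 RPM) fell, and the median log2 fold change of the list was -0.25. The 5 blood cell markers summed to 209 to 275 RPM with deltaSAM, against 179 to 212 RPM with Daed WT, and to 109 to 116 RPM with KEE, against 206 to 215 RPM with Armi WT, most of it from crq, and Hml was at 0 in every library of the Daed knockdown. Other markers of the list went against the sum. With KEE srp rose to 19.3 RPM, against 10.3 RPM with Armi WT, and the median log2 fold change of the list was 0.38. With deltaSAM Pxn fell to 3.97 RPM, against 8.96 RPM with Daed WT. The part of these markers in the results was not tested.

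The members differed widely in how many piRNAs they gave. The armi gene (FBgn0041164, dm6 3L:3461317-3466314) averaged 726 RPM over the 12 libraries and ranked 156th of all genes in the table. Gasz (FBgn0033273, 2R:8167948-8170089) averaged 30.8 RPM, daed (FBgn0031398, 2L:2214972-2216311) 17.5 RPM, mino (FBgn0027579, 3R:27925191-27933077) 15.2 RPM and zuc (FBgn0261266, 2L:11988735-11989882) 3.06 RPM. Per kilobase of the gene's span, which includes introns, the mean level was 145 RPM for armi, 14.4 RPM for Gasz, 13.0 RPM for daed, 2.67 RPM for zuc and 1.92 RPM for mino. On this scale zuc, the shortest of the 5 at 1148 bases, stood above mino, the longest at 7887 bases. Averaged over the 12 libraries armi stood far above the other 4, but plasmid reads may add to it in the Armi knockdown. Per kilobase it averaged 311 RPM with KEE and 176 RPM with Armi WT. Where no plasmid carried armi, it averaged 36.9 RPM with deltaSAM and 57.9 RPM with Daed WT. In these 2 groups daed, which the plasmid carried, averaged 22.6 and 22.7 RPM per kilobase.

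Annotated genes overlapped 4 of the 5 members. In the RefSeq annotation armi lay wholly within CG46463, for which no row of the gene table was matched by symbol, so its reads are not known. CG34174 overlapped 196 bases of daed and averaged 0.368 RPM with deltaSAM, 1.10 RPM with Daed WT, 1.51 RPM with KEE and 1.66 RPM with Armi WT. CG34163 overlapped 67 bases of zuc and averaged at most 0.963 RPM in any group. Within the span of mino lay nenya, at most 0.184 RPM, and the lncRNA gene CR45566, at most 0.0885 RPM. The antisense gene CR46452, which overlapped 21.7% of the span, was also not matched to a row by symbol. NSD overlapped 96 bases of mino and averaged 9.78 RPM with deltaSAM, 14.3 RPM with Daed WT, 17.0 RPM with KEE and 11.4 RPM with Armi WT, where mino averaged 13.7, 11.9, 17.0 and 18.2 RPM in these groups. Gasz overlapped no annotated gene. Whether the authors counted reads by strand is not given in the sources used here, so reads of overlapping genes cannot be told apart.

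**Figure D1:**
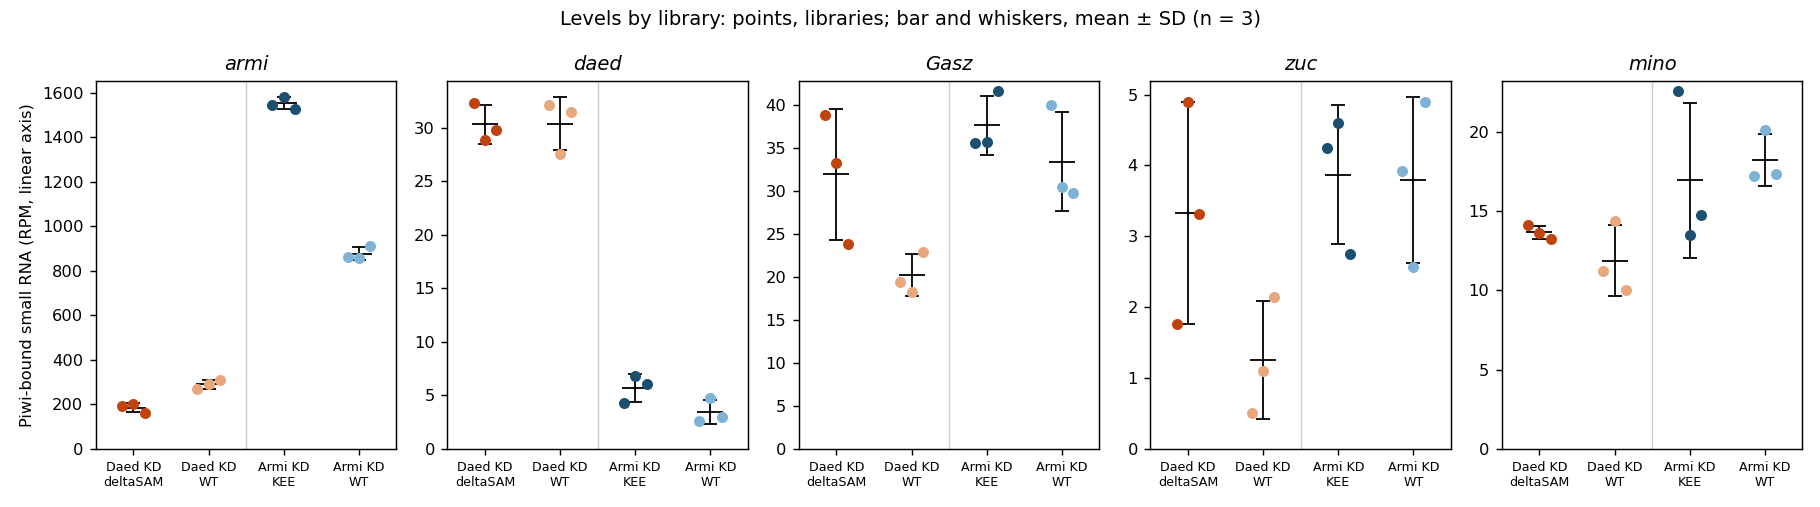
Piwi-bound small RNAs of each of the 5 genes in RPM (vertical axes, linear, from 0, scaled for each gene) in the 12 libraries (points), with the mean and SD of each group of 3. The armi points of the 4 groups do not overlap, daed lies at 27.6 to 32.3 RPM in the Daed knockdown and 2.61 to 6.76 RPM in the Armi knockdown, and zuc stays below 5 RPM in every library.

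The knocked-down and rescued genes themselves set the experiments apart. The gene daed gave 2.61, 4.71 and 3.01 RPM in the 3 Armi-knockdown WT libraries, against 32.1, 27.6 and 31.5 RPM in the 3 Daed-knockdown WT libraries. It was thus low wherever the rescue plasmid encoded Armi and high wherever it encoded Daed, with no overlap. Its log2 difference between these WT groups, -2.85 ± 0.22 (SE), was the lowest of all 8246 tested genes (adjusted p = 2.7e-11, limma with Benjamini-Hochberg over all tested genes). The gene armi gave 864, 857 and 913 RPM in the Armi-knockdown WT libraries, against 267, 290 and 310 RPM in the Daed-knockdown WT libraries. Its log2 difference of 1.60 ± 0.08 ranked 62nd from the highest (adjusted p = 1.3e-14, limma). Each of these genes was higher in the experiment in which it was depleted and resupplied. Reads of the plasmid transcripts, of the endogenous transcripts and of the separate experiments cannot be told apart here, so the level of these genes does not check the knockdowns.

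The other 3 members, which no plasmid carried, were also higher in the Armi-knockdown WT libraries. Gasz gave 40.0, 30.4 and 29.8 RPM there, against 19.4, 18.2 and 22.9 RPM in the Daed-knockdown WT libraries (log2 difference 0.69 ± 0.17, adjusted p = 0.0024, limma). The acyltransferase gene mino gave 17.2, 20.1 and 17.3 RPM, against 11.2, 14.3 and 10.0 RPM (0.59 ± 0.21, adjusted p = 0.034, limma). The nuclease gene zuc gave 3.92, 2.57 and 4.90 RPM, against 0.510, 1.10 and 2.15 RPM (1.12 ± 0.37, adjusted p = 0.022, limma). In each of these genes the groups did not overlap. For zuc this rested on few reads, 15, 6 and 13 against 1, 2 and 3. All 5 members passed the test in this comparison, 4 higher and 1 lower, where 25.3% of all tested genes were called (18.9% higher and 6.35% lower), and all 5 had groups that did not overlap, as did 36.5% of all tested genes. Scaled to the total of the gene table, the calls on Gasz, mino and zuc were lost, at adjusted p = 0.11, 0.35 and 0.072, while those on armi and daed held. The mino call was lost when any library but replicate 2 of Daed WT was left out (adjusted p from 0.056 to 0.13). The zuc call was lost without replicate 1 or 2 of Daed WT or replicate 1 or 3 of Armi WT (adjusted p from 0.051 to 0.12). Counting all alternative analyses, the mino call was lost in 9 of 17 and the zuc call in 7 of 16.

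With deltaSAM in place of Daed WT, piRNAs of armi were lower, those of Gasz and zuc were higher, and neither daed nor mino passed the test. In this comparison 36.2% of all tested genes were called (17.3% higher and 18.9% lower), and 3 of the 5 members. The armi gene, whose transcript no plasmid supplied here, gave 192, 200 and 161 RPM with deltaSAM, against 267, 290 and 310 RPM with Daed WT. The groups did not overlap, and the mean fell to 184 ± 20.4 RPM with deltaSAM, against 289 ± 21.5 RPM with Daed WT (SD, n = 3 each). The log2 fold change was -0.65 ± 0.08 (SE), with a 95% interval of -0.82 to -0.48 (adjusted p = 5.5e-07, limma). Scaled to gene reads only, armi averaged 318 RPM with deltaSAM, against 577 RPM with Daed WT, and it was lower in all 17 alternative analyses of this comparison. Over all tested genes the median log2 fold change was -0.10.

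Gasz, the ankyrin-repeat partner of Daed, gave 38.8, 33.2 and 23.7 RPM with deltaSAM, against 19.4, 18.2 and 22.9 RPM with Daed WT. The groups did not overlap, though the lowest deltaSAM library lay close to the highest WT library. Non-overlap of this kind was seen for armi and Gasz among the members and for 40.6% of all tested genes. The log2 fold change of Gasz was 0.62 ± 0.17 (adjusted p = 0.0055, limma). Without replicate 1 of deltaSAM, the highest library, it was 0.47 and no longer passed (adjusted p = 0.051), and scaled to the gene-table total it was 0.42 (adjusted p = 0.059).

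The change of zuc rested on few reads. The 3 deltaSAM libraries held 3, 9 and 6 reads of zuc, or 1.76, 4.90 and 3.31 RPM, against 1, 2 and 3 reads, or 0.510, 1.10 and 2.15 RPM, in the Daed WT libraries. The groups overlapped. Pooled over libraries, the ratio of deltaSAM to WT was 2.90, with an exact 95% interval of 1.10 to 8.92 that covers counting error only. The log2 fold change of RPM + 1 was 0.94 ± 0.37 (adjusted p = 0.045, limma), and the call was lost in 11 of 16 alternative analyses, among them those without replicate 1 or 2 of Daed WT or without replicate 2 or 3 of deltaSAM (adjusted p from 0.083 to 0.20).

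The gene daed, present on the plasmid in both groups, gave 32.3, 28.9 and 29.8 RPM with deltaSAM, against 32.1, 27.6 and 31.5 RPM with Daed WT. The libraries were interleaved, and the log2 fold change was -0.00 ± 0.22 with a 95% interval of -0.46 to 0.45 (adjusted p = 0.997, limma). Plasmid reads were not separated, and the deltaSAM plasmid lacks the SAM domain, so the groups may not offer the same daed sequence to count. The gene mino gave 14.1, 13.6 and 13.3 RPM with deltaSAM, against 11.2, 14.3 and 10.0 RPM with Daed WT. Its groups overlapped, and its log2 fold change was 0.20 with a 95% interval of -0.22 to 0.63 (adjusted p = 0.48, limma).

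**Figure D2:**
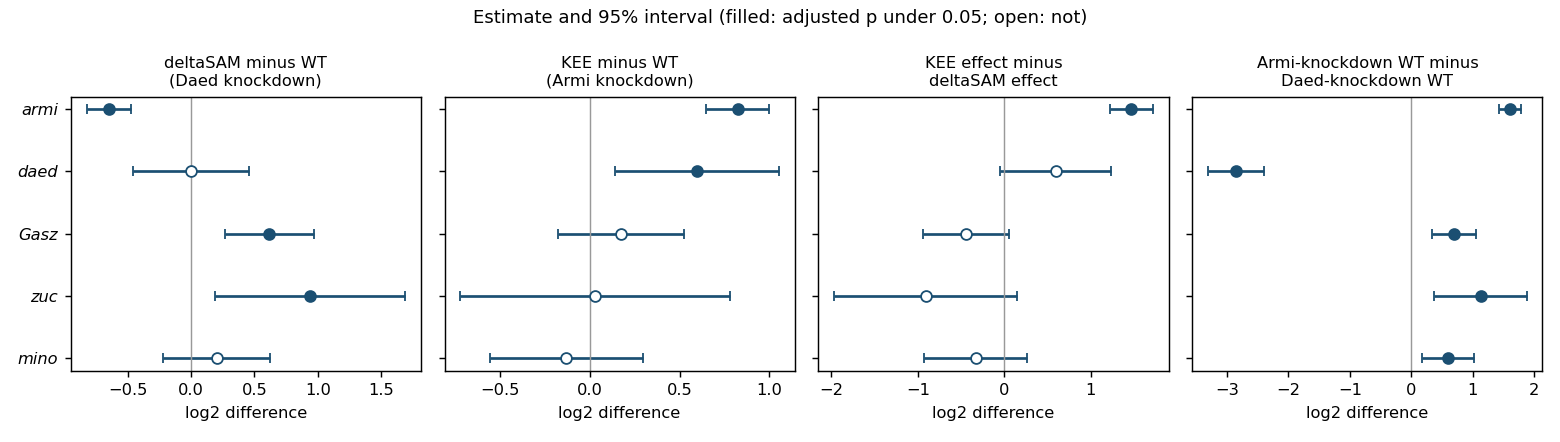
Log2 difference of each gene (rows) in the 4 comparisons (panels), as the estimate and its 95% interval from limma on log2(RPM + 1); filled points have an adjusted p under 0.05. The armi gene lies at -0.65 with deltaSAM and 0.82 with KEE, and the intervals of daed, Gasz and zuc are wider in each panel.

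With KEE in place of Armi WT, piRNAs of armi were higher, and no other member changed in a way that held across analyses. Of all tested genes 44.7% were called in this comparison (33.0% higher and 11.7% lower), and of the members 2 of 5, armi and daed, both higher. The libraries of the groups did not overlap for armi alone among the members, and for 58.0% of all tested genes. The armi gene gave 1548, 1583 and 1530 RPM with KEE, against 864, 857 and 913 RPM with Armi WT, or 1553 ± 26.8 RPM against 878 ± 30.3 RPM (SD, n = 3 each). Its log2 fold change was 0.82 ± 0.08 (SE), with a 95% interval of 0.65 to 1.00 (adjusted p = 2.3e-09, limma). Here both plasmids encode Armi, so plasmid reads may lie in both groups and were not separated. The median log2 fold change over all tested genes was 0.30, and 75.5% of tested genes had a lower value than armi. Scaled to the gene-table total the value of armi was 0.50, centred on the median gene 0.47 and with TMM factors 0.40, and it passed the test under each.

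The gene daed gave 4.25, 6.76 and 6.01 RPM with KEE, from 16, 25 and 24 reads, against 2.61, 4.71 and 3.01 RPM with Armi WT, from 10, 11 and 8 reads. The groups overlapped through the lowest KEE library, and no plasmid carried daed here. The log2 fold change was 0.60 ± 0.22 (adjusted p = 0.030, limma), and the call was lost in 10 of 17 alternative analyses, among them those without replicate 1 or 3 of Armi WT or replicate 2 or 3 of KEE (adjusted p from 0.082 to 0.14) and those under the 3 other scalings (adjusted p from 0.28 to 0.42).

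Gasz gave 35.6, 35.7 and 41.6 RPM with KEE, against 40.0, 30.4 and 29.8 RPM with Armi WT, and the groups overlapped. Its log2 fold change was 0.18, with a 95% interval of -0.17 to 0.53 (adjusted p = 0.43, limma). The gene mino gave 22.6, 13.5 and 14.8 RPM with KEE, against 17.2, 20.1 and 17.3 RPM with Armi WT. Replicate 1 of KEE was the highest of these 6 libraries and the other KEE libraries were the lowest, and the log2 fold change was -0.13 with a 95% interval of -0.55 to 0.29 (adjusted p = 0.65, limma). The gene zuc gave 4.25, 4.60 and 2.75 RPM with KEE, against 3.92, 2.57 and 4.90 RPM with Armi WT, a log2 fold change of 0.03 with a 95% interval of -0.72 to 0.78 (adjusted p = 0.95, limma). The direction for Gasz and zuc turned with the scaling, to -0.14 and -0.24 at the gene-table total. With TMM factors mino passed as lower (-0.52, adjusted p = 0.016, edgeR).

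**Figure D3:**
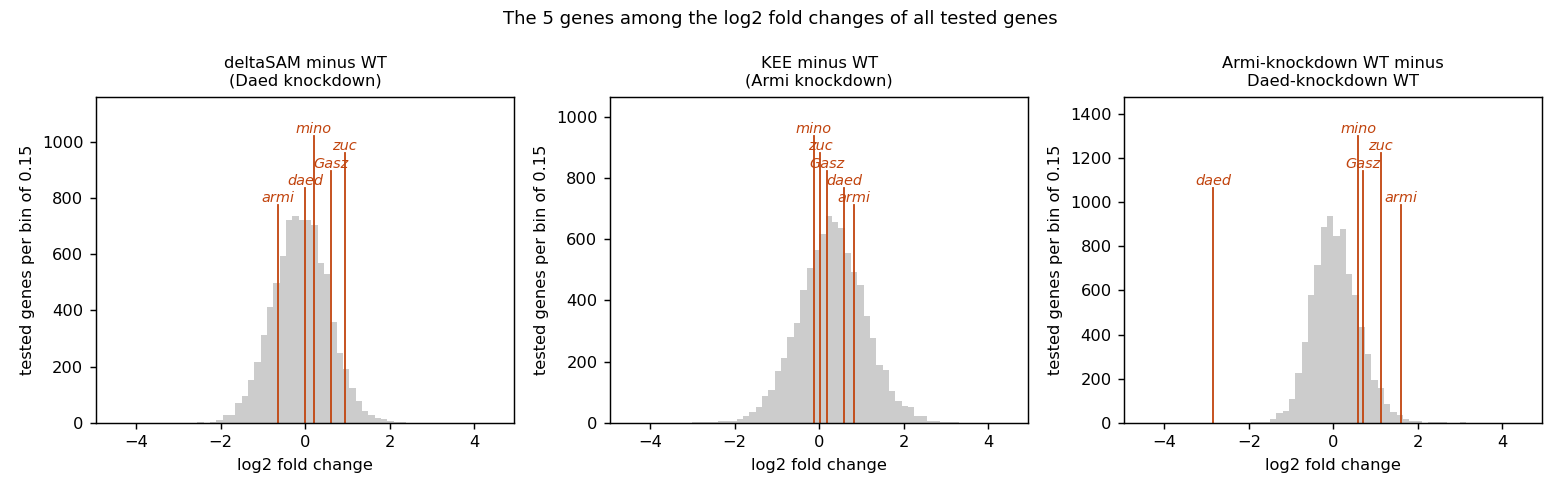
Distribution of log2 fold changes over all 8246 tested genes (grey, genes per bin) for deltaSAM against Daed WT, KEE against Armi WT, and Armi-knockdown WT against Daed-knockdown WT, with the 5 genes marked by lines whose height carries no value. In the first 2 panels the members lie within the bulk of genes, and in the last panel daed at -2.85 lies below every other gene.

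The effects of the variants differed for armi. The KEE effect minus the deltaSAM effect was 1.47 ± 0.12 on the log2 scale for armi, with a 95% interval of 1.23 to 1.72 (adjusted p = 4.9e-11, limma with an interaction contrast). It lay between 0.91 and 1.53 in 22 alternative analyses and passed in each. This was 1 of 5 members called, where 40.4% of all tested genes were called (29.4% higher and 11.0% lower) and the median difference over all genes was 0.44. The difference was 0.60 ± 0.31 for daed (adjusted p = 0.13), -0.44 ± 0.24 for Gasz (0.15), -0.91 ± 0.52 for zuc (0.17) and -0.33 ± 0.29 for mino (0.39). None of these 4 passed in limma on RPM, though Gasz did without replicate 3 of deltaSAM (-0.63, adjusted p = 0.023) and daed did without replicate 2 of Armi WT (0.79, adjusted p = 0.048). Each library centred on its median gene, the differences were -1.01 for Gasz, -1.47 for zuc and -0.90 for mino, and all 3 passed (adjusted p = 0.0017, 0.026 and 0.018, limma). With TMM factors they were -1.06, -2.03 and -0.82 and also passed (adjusted p = 0.00062, 0.029 and 0.043, edgeR). The differences of these 3 genes were below 0 under every scaling tried, and whether they passed the test depended on it.

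**Figure D4:**
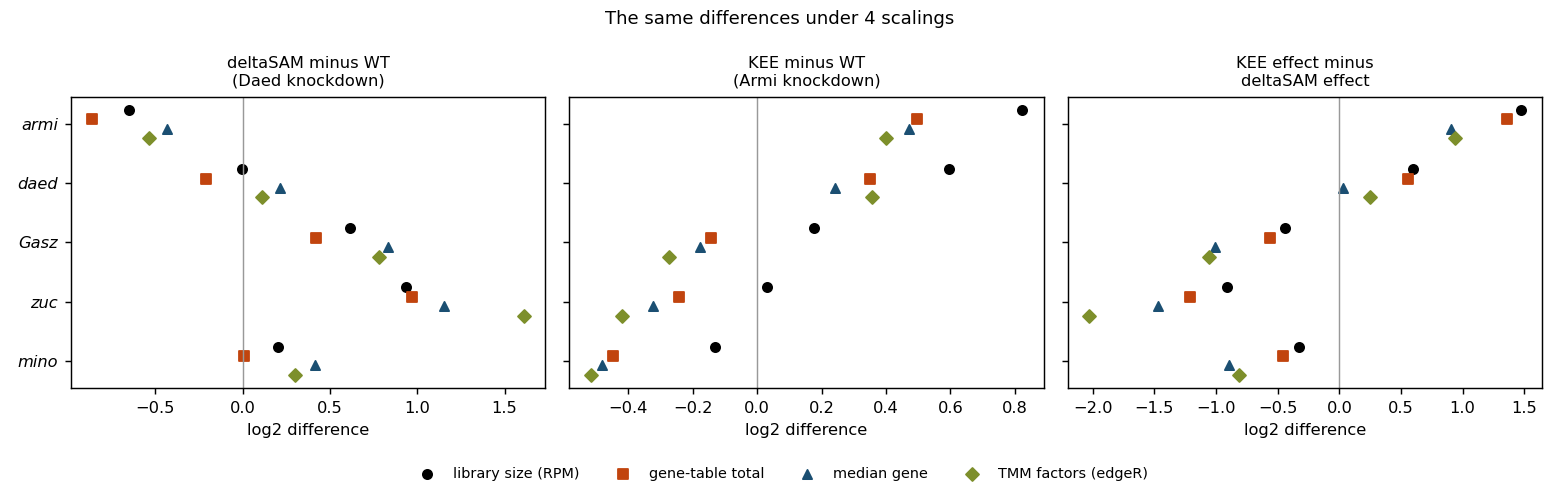
Log2 difference of each gene (rows) with deltaSAM, with KEE and between these effects (panels), under 4 scalings: library size (RPM), gene-table total, median gene and TMM factors (symbols). The armi points stay on the same side of 0 in each panel, whereas those of Gasz and zuc with KEE, and of daed with deltaSAM, lie on both sides of 0.

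The share of each member among the reads of all 5 shows how far armi led the set. It held 69.9 ± 1.23% of these reads with deltaSAM, against 81.9 ± 0.923% with Daed WT, and 96.0 ± 0.242% with KEE, against 93.7 ± 0.595% with Armi WT (SD, n = 3 each). Gasz held 12.0 ± 1.82% with deltaSAM, against 5.71 ± 0.471% with Daed WT, and 2.33 ± 0.241% with KEE, against 3.57 ± 0.653% with Armi WT. Such shares depend on armi, which may include plasmid reads in the Armi knockdown. The level of Gasz itself averaged 31.9 RPM with deltaSAM, against 20.2 RPM with Daed WT, and 37.6 RPM with KEE, against 33.4 RPM with Armi WT. Without armi the summed level of the other 4 was 79.2 ± 8.51 RPM with deltaSAM, against 63.7 ± 2.71 RPM with Daed WT, and 64.1 ± 3.15 RPM with KEE, against 58.8 ± 4.46 RPM with Armi WT. This sum joins opposite moves, as daed was lower and Gasz, zuc and mino were higher in the Armi-knockdown WT libraries than in the Daed-knockdown WT libraries. It therefore does not show that the single genes were steady. Over the libraries armi spanned a 9.81-fold range and daed a 12.4-fold range. Gasz and mino spanned 2.28-fold and 2.25-fold.

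The order of the groups differed by gene. For armi it ran, from low to high, deltaSAM, Daed WT, Armi WT and KEE, with no overlap between neighbours. For daed the groups ran Armi WT, KEE, deltaSAM and Daed WT, and neighbours differed beyond their spread only between the knockdowns, at KEE against deltaSAM. For Gasz the order was Daed WT, deltaSAM, Armi WT and KEE, and each of the last 3 groups overlapped its neighbour. For zuc the means were lowest in Daed WT and ran from 3.33 to 3.87 RPM in the other 3 groups, which overlapped. For mino they ran from 11.9 RPM in Daed WT and 13.7 RPM in deltaSAM to 17.0 RPM in KEE and 18.2 RPM in Armi WT, and each group overlapped its neighbour.

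Profiles over the 12 libraries were compared by the root mean square difference of log2(RPM + 1) after each gene was centred on its own mean, over 3841 other genes of at least 10 RPM on average. Closest to armi were shg, which encodes E-cadherin (0.19), Rab5, a GTPase of early endosomes (0.28), and DIP-kappa (0.32), where the median gene lay at 1.06. The gene shg gave 49.8 RPM with deltaSAM, 59.0 RPM with Daed WT, 366 RPM with KEE and 212 RPM with Armi WT. Closest to daed were Cht2 (0.57), Gmap (0.81) and Nsun5 (0.82), and no gene came within 0.5. This depended on the scale. On log2(RPM + 10) Cht2 lay at 0.33 and Gmap at 0.38, and 0.573% of the genes came within 0.5. Plasmid reads may add to the profiles of armi and daed, and their part was not tested. Cht2, a chitinase gene, gave 23.5 RPM with deltaSAM, 20.2 RPM with Daed WT, 5.05 RPM with KEE and 6.22 RPM with Armi WT. For Gasz the closest were Gnpnat, CG4393 and RpL37-1 (0.16 to 0.17), and for mino tub, CG30466 and CG5174 (0.16 to 0.18). These last 2 profiles were common ones, with 41.5% and 43.7% of the genes within 0.5.

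The other factors of somatic piRNA production moved in both directions. Of 12 tested, 4 rose and 5 fell with deltaSAM, and 4 rose and 2 fell with KEE, where 17.3% of all tested genes rose and 18.9% fell with deltaSAM and 33.0% rose and 11.7% fell with KEE. For KEE, rescaling to gene reads turned the balance to 3 higher and 4 lower, and TMM factors to 3 higher and 5 lower. The median of the list with KEE turned to -0.15 and -0.26 under these scalings, and with deltaSAM to -0.17 and 0.20. The median log2 fold change was 0.03 with deltaSAM and 0.15 with KEE, against -0.10 and 0.30 over all tested genes. SoYb, a Tudor protein, fell to 38.3 ± 3.56 RPM with deltaSAM, against 69.5 ± 9.61 RPM with Daed WT (-0.84 ± 0.12, adjusted p = 2.5e-06, limma). Nbr, an exonuclease that trims small RNAs, rose to 77.8 ± 11.1 RPM, against 43.3 ± 1.77 RPM (0.82 ± 0.12, adjusted p = 4.4e-06), and piwi was also higher (1.29 ± 0.09). With KEE fs(1)Yb, the core protein of Yb bodies, fell to 34.2 ± 3.62 RPM, against 89.1 ± 1.53 RPM with Armi WT (-1.36 ± 0.12, adjusted p = 3.8e-11, limma). The chaperone gene Hsp83 rose to 2126 ± 19.0 RPM with KEE, against 863 ± 47.5 RPM with Armi WT (1.30 ± 0.11, adjusted p = 6.8e-11), and sbr, the messenger RNA export receptor, rose to 107 ± 5.75 RPM, against 43.9 ± 1.45 RPM (1.26 ± 0.11). Like armi, sbr fell with deltaSAM (-0.73 ± 0.11), and its KEE effect minus its deltaSAM effect was 1.99 ± 0.16, against 1.47 for armi. Hel25E (-0.54 with deltaSAM and 0.85 with KEE) and shu (-0.97 and 0.49) of this list also fell and rose in this way. Their KEE effect minus their deltaSAM effect was 1.40 ± 0.17 and 1.46 ± 0.22. In this difference 4 of the 12 genes were called higher and 4 lower, where 29.4% of all tested genes were higher and 11.0% lower.

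Genes of outer membrane proteins with other roles and of the enzyme families of Mino and Zuc were described from lists beside the members. Sam50 of the first list and Pld, listed for the phospholipase D family, were not matched by symbol and not tested. Of 11 outer membrane genes 3 rose and 1 fell with deltaSAM, and 6 rose and 0 fell with KEE (limma; 7 and 0 at an unadjusted p under 0.05, and 2 higher and 1 lower in edgeR with TMM factors). Over all tested genes 17.3% rose and 18.9% fell with deltaSAM, and 33.0% rose and 11.7% fell with KEE. The median log2 fold change was 0.06 with deltaSAM, turning to -0.12 when rescaled to gene reads, and 0.63 with KEE, against -0.10 and 0.30 over all tested genes. The anion channel gene porin fell to 91.2 ± 5.46 RPM with deltaSAM, against 129.96 ± 1.78 RPM with Daed WT (-0.51 ± 0.10, adjusted p = 1.1e-04, limma). It rose to 267 ± 15.5 RPM with KEE, against 87.6 ± 4.43 RPM with Armi WT (1.59 ± 0.10, adjusted p = 2.6e-14, limma). Tom40, the pore of the protein import complex, rose with deltaSAM (0.64 ± 0.13) and with KEE (1.36 ± 0.13). Of 10 tested genes of glycerophospholipid synthesis 2 rose and 1 fell with deltaSAM. When rescaled to gene reads 0 rose and 3 fell, centred on the median gene 3 rose and 1 fell, and with TMM factors 2 rose and 1 fell. The median with deltaSAM stayed above 0 under these scalings, at 0.03, 0.45 and 0.37. With KEE 0 rose and 3 fell (limma; 0 and 4 at an unadjusted p under 0.05, and 0 and 5 in edgeR and in DESeq2). The median log2 fold change was 0.23 with deltaSAM and -0.22 with KEE. PGS1, the gene called lower with deltaSAM, had low levels. It gave 0.588 ± 1.02 RPM with deltaSAM, against 4.64 ± 1.70 RPM with Daed WT (-1.96 ± 0.40, adjusted p = 3.2e-04, limma). Gpat4, an acyltransferase of the same reaction as Mino, fell to 20.7 ± 2.57 RPM with KEE, against 40.8 ± 2.78 RPM with Armi WT (-0.95 ± 0.15, adjusted p = 2.8e-06, limma). With deltaSAM it gave 28.3 ± 1.96 RPM, against 35.8 ± 2.21 RPM with Daed WT, and did not pass (-0.33 ± 0.15, adjusted p = 0.078, limma).

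Loci known as piRNA sources in these cells, flam and tj, served as a scale for the members. The flam cluster, whose transcript is a main source of transposon-targeting piRNAs, fell to 20269 ± 742 RPM with deltaSAM, against 27237 ± 1841 RPM with Daed WT (-0.42 ± 0.07, adjusted p = 2.3e-05, limma). It fell to 8702 ± 440 RPM with KEE, against 20852 ± 175 RPM with Armi WT (-1.26 ± 0.07, adjusted p = 6.2e-15, limma). The piRNAs of tj rose with deltaSAM (1.05 ± 0.08) and fell with KEE (-0.57 ± 0.08), where armi fell with deltaSAM and rose with KEE. The directions of flam and tj held under each scaling.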

How the data were processed

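The authors deposited a table of 17469 genes and 12 libraries whose unit, per the file headers, is RPM. The submitters' processing notes list STAR, HTSeq, BDGP6 and dm6 and give neither version nor role. Low values were whole multiples of 1 read, and 100% of the values came back to whole reads within 0.01, which gave the library sizes. Symbols matched 17341 identifiers (99.3%), and dm6 positions came from the RefSeq gene table.

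The design kept a count test for a table of counts. As the table holds RPM, limma-trend was run on log2(RPM + 1) with the 12 libraries in 1 fit, 4 contrasts of group means, and genes of at least 1 RPM in at least 3 libraries (8246 genes, all 5 members among them). Fold changes on this scale understate those of low genes. Benjamini-Hochberg adjustment ran across the tested genes, with calls at an adjusted p under 0.05. The members, lists and tests were chosen with earlier results of these data known. Named genes were the members, overlapping or nearest genes, the 3 closest profiles to each member of at least 10 RPM on average, and up to 3 genes of each list by p. Hel25E and shu were named besides, as genes that moved in the directions of sbr. The genes nearest to Gasz are not reported here. The scripts were tested on simulated data with planted changes.

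Results were recomputed without a filter, with a filter of 10 RPM in 3 libraries, with a pseudocount of 0.1 or 10, with a replicate block, with the 6 libraries compared alone, 2 other scalings, edgeR with and without TMM factors and DESeq2 on recovered reads, and each library left out. Read intervals are exact at 95% and cover counting error only. On recovered reads edgeR with TMM factors called 2563 genes with deltaSAM and 3841 with KEE. The transposon table was not used here. Tables were read in Python 3.11.15 (pandas 2.3.3, numpy 2.4.6), intervals came from scipy 1.17.1 and plots from matplotlib 3.10.9, while models ran in R 4.3.3 using DESeq2 1.42.0, edgeR 4.0.16 and limma 3.58.1.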

Additional observations from a re-analysis of the deposited data

Results flagged for a closer look

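The piRNAs of armi moved in opposite directions with the variants, and the difference itself passed a test. The KEE effect minus the deltaSAM effect was 1.47 on the log2 scale (± 0.12, SE; adjusted p = 4.9e-11, limma with an interaction contrast). All 3 deltaSAM libraries, at 161 to 200 RPM, lay below the 3 Daed WT libraries, at 267 to 310 RPM. All 3 KEE libraries, at 1530 to 1583 RPM, lay above the 3 Armi WT libraries, at 857 to 913 RPM. Such non-overlap was seen for 40.6% of all tested genes with deltaSAM and for 58.0% with KEE. In the difference of effects 40.4% of all tested genes were called, 29.4% higher and 11.0% lower. The median difference was 0.44, and armi ranked 923rd from the highest of 8246 genes. The armi plasmids were present in the Armi knockdown and absent from the Daed knockdown, so the contribution of plasmid reads to this difference was not tested.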

How the results depend on the processing

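Of 20 member results, 361 values were recomputed under alternatives: 291 kept direction and side of the threshold, 40 kept direction and lost the call, 10 gained it and 20 changed sign. The armi results held under every alternative run. Members called with deltaSAM were 3, but 2 without a filter, with the 10 RPM filter (which leaves zuc untested), with a pseudocount of 10, with the 6 libraries alone, in both edgeR fits and with DESeq2, 1 at the gene-table total, and from 2 to 3 with each library left out. With KEE they were 2, and 1 with a pseudocount of 10, with the 6 libraries alone, at the gene-table total, centred or with DESeq2, and from 1 to 2 with each library left out. With TMM factors they were armi and mino, the latter lower, as daed lost its call there. For the difference of effects they were 1, but 4 centred or with TMM factors, 2 with DESeq2, and from 1 to 2 with each library left out. Between WT groups they were 5, but 4 without a filter, with the 10 RPM filter and in both edgeR fits, 2 at the gene-table total, 3 with DESeq2, and from 3 to 4 with each library left out. Sign changes came in results that did not pass in limma on RPM. For daed with deltaSAM the value was 0.21 centred, 0.11 with TMM factors, 0.071 with DESeq2 and from -0.068 to 0.038 with each library left out. For Gasz with KEE it was -0.14 at the gene-table total, -0.18 centred, -0.27 with TMM factors and -0.27 with DESeq2. For zuc with KEE it was -0.24 at the gene-table total, -0.32 centred, -0.42 with TMM factors, -0.41 with DESeq2, -0.0010 in edgeR with the library size alone and from -0.17 to 0.21 with each library left out. For mino with KEE it was 0.0070 without replicate 2 of KEE, and from -0.34 to 0.0070 with each library left out. The cause of these shifts was not tested. Genes called among all tested stayed within 1.5 times the main count under every alternative run. Same-numbered libraries did not deviate together (correlations across genes from -0.01 to 0.06), and not every library correlated best with its own number, so the numbers were not read as pairs. With the replicate block 3000 genes were called with deltaSAM, against 2987 without, and 3682 with KEE, against 3684, and no member's call changed. With a pseudocount of 10, 2 of the 3 closest profiles remained for each of 4 members. Depth limits zuc most, with 6 reads in the 3 Daed WT libraries.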
